A study of Caenorhabditis elegans with 12 samples.

Results

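The AP-1 and stress MAP kinase genes are 10 genes chosen by their symbols, and the rows of the deposited table with those symbols were taken, 10 of 46739 features. They are *fos-1* and *jun-1*, which encode the *C. elegans* homologs of Fos and Jun, the p38 cascade genes *nsy-1*, *sek-1*, *pmk-1*, *pmk-2* and *pmk-3*, the JNK family kinase genes *kgb-1* and *jnk-1*, and *atf-7*, which encodes a transcription factor of the p38 pathway. The rule used no measured value, although the members were chosen with earlier results of these data known. All 10 genes passed the filter for testing. RNA of whole day 1 adults of strain PMD216 was sequenced from worms fed bacteria with the empty RNAi vector (EV), with a *cat-1* RNAi clone or with a *cat-2* RNAi clone, and each of the 3 groups had 4 libraries that are labelled biological replicates. The product of *cat-1* is a transporter that loads dopamine into vesicles, and *cat-2* codes for tyrosine hydroxylase, the enzyme that begins dopamine synthesis.

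All 12 libraries share the strain, for which the labels give the reporter dat-1p::GFP, the rescue construct dat-1p::sid1-SL2-rde-1 and the mutations rrf-3(b26) II and rde-1(ne219) V. The study's methods add the alleles fem-1(hc17) IV, eri-1(mg366) IV and lin-15B(n744) X and the insertion wpSi6 II, so the EV worms carry them too. The *rde-1* mutation removes an Argonaute protein that RNAi needs, and the *dat-1* promoter, which is active in dopaminergic neurons, restores it there. The same construct also overexpresses the RNA channel SID-1 in those neurons. The worms were not injured. Each library came from a pool of worms, so a member's RNA in the few dopaminergic neurons cannot be separated from its RNA in the rest of the body. In such whole-worm libraries fewer cells of a type and less RNA per cell cannot be told apart.

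In a p38 or JNK cascade, a kinase activates a second kinase by phosphorylation and the second activates the MAP kinase, which phosphorylates transcription factors in turn. In *C. elegans* the chain NSY-1, SEK-1 and PMK-1 controls defence genes of the intestine, ATF-7 is a transcription factor that PMK-1 phosphorylates, PMK-3 acts in axon regrowth, and KGB-1 acts in the response to heavy metals and misfolded proteins. Fos and Jun form the dimer AP-1, an immediate early transcription factor in many animals. The activity of all these proteins depends on phosphorylation, which RNA levels do not measure.

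The libraries held 18765779 to 21493743 mapped reads, and levels are given in RPKM, the reads of a gene scaled to its length and to the mapped reads of the library. The reads of each RNAi target were higher in its own RNAi libraries, *cat-1* with 15 reads in EV against 107 under its own RNAi label (6.94-fold per mapped read, 95% exact interval 4.03 to 12.83) and *cat-2* with 19 against 156 (8.17-fold, 5.06 to 13.9), with an exact two-sided permutation p of 0.0286 each. This goes against a knockdown as the labels read, and whether those reads are worm mRNA or double-stranded RNA of the feeding bacteria was not tested. Of the 107 *cat-1* reads, 61 were in *cat-1* RNAi replicate 3, with 12 to 21 in each other library of that group. The intervals pool the reads of a group and cover counting error only, not differences between replicates. The summed RPKM of the marker lists ranged over the 12 libraries from 1949 to 2139 for 6 germline genes, from 273 to 320 for 7 neuronal genes, from 147 to 170 for 4 body wall muscle genes in 11 libraries (265 in EV replicate 2), from 128 to 161 for 4 intestinal genes, from 95.3 to 149 for 3 epidermal genes, from 7.27 to 10.4 for 4 dopaminergic genes, from 1.37 to 2.63 for 2 pharyngeal genes and from 0.75 to 3.61 for 4 sperm genes. The epidermal sums of all 4 *cat-2* RNAi libraries (95.3 to 131) lay below those of all 4 EV libraries (143 to 149). *col-19* made up most of these sums, with group means of 145 RPKM in EV and 118 with *cat-2* RNAi. The other epidermal genes went the other way, *dpy-7* from 0.434 to 0.952 RPKM and *che-14* from 0.419 to 0.594 RPKM. The part of the marker differences in the results below was not tested. The dopaminergic list includes both RNAi targets, and without them *bas-1* and *dat-1* summed to 6.99 to 8.93 RPKM. The dopamine transporter gene *dat-1* was at 0.0590 to 0.0962 RPKM in the group means. The library *cat-2* RNAi replicate 2 stood apart from the others with the lowest weight in limma's estimate (0.331, with 1.54 for the highest), and *cat-2* RNAi replicate 3 was next (0.629).

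None of the 10 genes differed between groups at an adjusted p under 0.05 in any of the 3 comparisons. The background among 13161 genes was 0% for *cat-1* RNAi against EV, 0.0304% (4 genes) for *cat-2* RNAi against EV and 0% for *cat-2* RNAi against *cat-1* RNAi (limma, Benjamini-Hochberg). At an unadjusted p under 0.05, limma called 1 member (*pmk-3*, higher) for *cat-1* RNAi against EV, where 5.94% of all genes were called (3.45% higher, 2.49% lower). It called 0 members for *cat-2* RNAi against EV, beside 8.84% of genes (4.89% higher, 3.95% lower), and 0 between the RNAi groups, beside 6.44% (3.28% higher, 3.16% lower). Limma voom on reads recovered from the RPKM values also called 1, 0 and 0 members, beside 5.53%, 8.87% and 6.23% of genes. Relative to EV, 8 of 10 genes lay above a log2 fold change of 0 in the *cat-1* RNAi libraries and 7 of 10 in the *cat-2* RNAi libraries, against 51.9% and 54% of all genes. The medians of the 10 log2 fold changes were 0.07 and 0.05, beside 0.004 and 0.011 over all tested genes. For *cat-2* RNAi the count was 5 of 10 without *cat-2* RNAi replicate 2. It was 9 of 10 with both libraries of lowest weight left out, an alternative chosen after seeing the data. Both comparisons share the 4 EV libraries, and members that vary together over the libraries do not give independent signs.

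The fold changes of the 10 genes were small. Relative to EV they ran from 0.908 to 1.23 with *cat-1* RNAi and from 0.947 to 1.17 with *cat-2* RNAi. The 95% intervals of limma reached from 0.757 to 1.49 in the first comparison and from 0.806 to 1.41 in the second, so changes beyond those limits are outside the interval of every member. Of the 10 intervals, 9 included no change with *cat-1* RNAi and 10 with *cat-2* RNAi. Leaving out 1 library moved 16 of the 20 log2 fold changes relative to EV by more than 1.5 times, the exceptions being *jun-1* and *pmk-3* with *cat-1* RNAi and *pmk-1* and *nsy-1* with *cat-2* RNAi. These folds are on the scale of RPKM + 0.5, which understates the change of a low gene such as *jnk-1*.

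**Figure D1:**
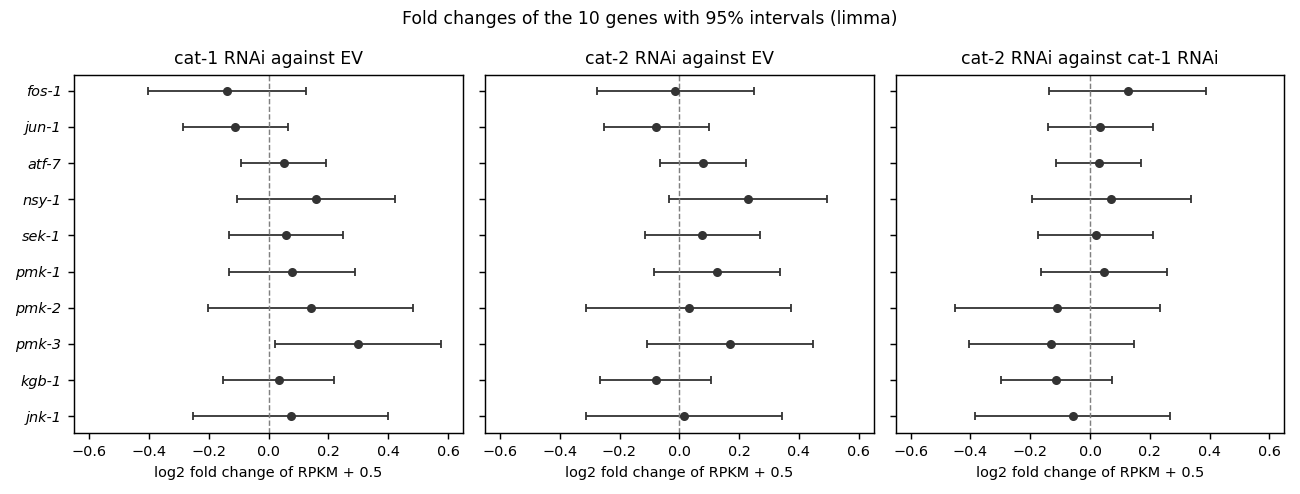
Log2 fold change of RPKM + 0.5 (horizontal axis) of each of the 10 genes (vertical axis) in the 3 comparisons, with points for the limma estimate and bars for its 95% interval (n = 4 libraries a group). The interval of *pmk-3* with *cat-1* RNAi, from 0.02 to 0.58, is the only one of the 30 that does not include 0.

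The levels of the 10 genes spanned a wide range in EV worms. *atf-7* was the highest at 95.7 ± 3.32 RPKM (SD, n = 4), at percentile 89.0 of tested genes, and *jnk-1* was the lowest at 0.516 ± 0.118 RPKM, at percentile 4.82. Between them stood *sek-1* (16.7 RPKM), *pmk-1* (15.99), *nsy-1* (14.3), *kgb-1* (12.6), *jun-1* (9.69), *fos-1* (6.85), *pmk-3* (5.42) and *pmk-2* (4.36). Among neighbours in this order, the EV libraries of *sek-1* and *pmk-1* overlapped, and so did those of *pmk-1* and *nsy-1*. All other neighbours were separate in EV. In the *cat-1* RNAi libraries *pmk-3* came before *fos-1*, with overlapping values, and *nsy-1* overlapped *kgb-1* and *fos-1* overlapped *pmk-2* as well. In the *cat-2* RNAi libraries *jun-1* overlapped *fos-1*, *fos-1* overlapped *pmk-3* and *pmk-3* overlapped *pmk-2*, and in both RNAi groups *sek-1*, *pmk-1* and *nsy-1* overlapped as in EV. Levels are compared between genes per length as the authors computed it. For *fos-1* the length recovered from the RPKM values was 1877 bp or a multiple of it, while its annotated exons cover 4411 bp, so its place in the order depends on the transcript used.

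**Figure D2:**
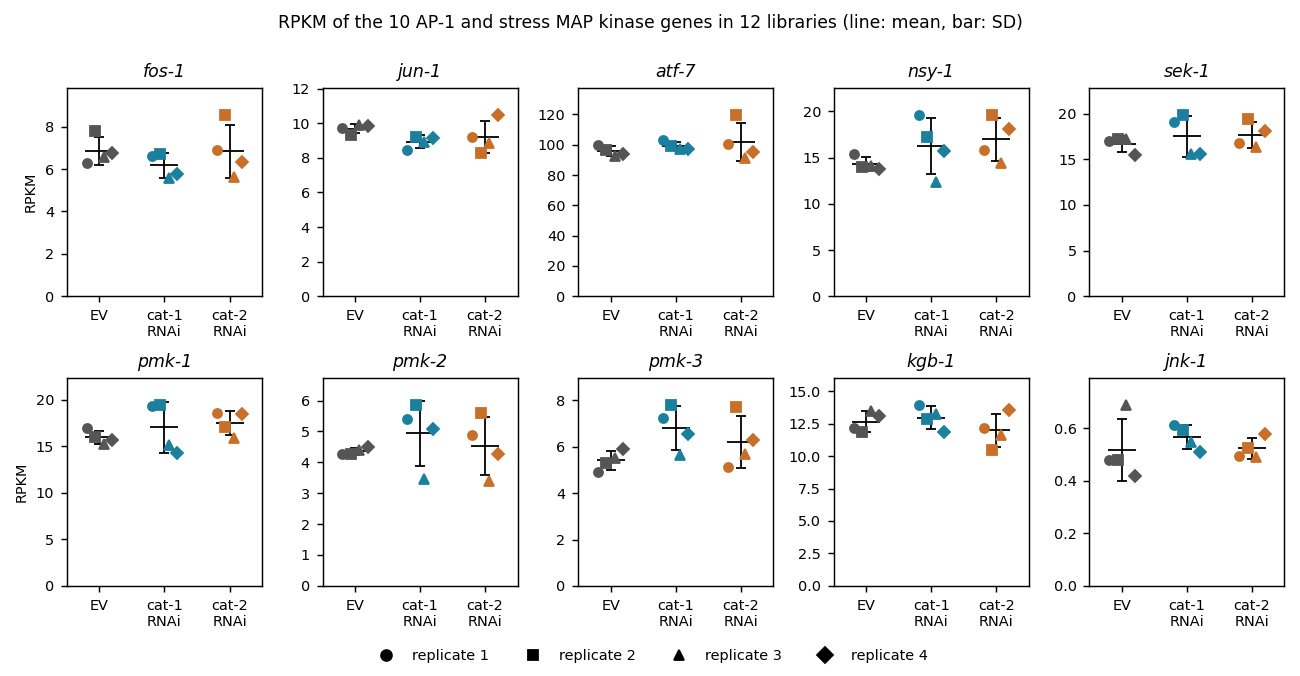
RPKM (vertical axes, each from 0) of each of the 10 genes in the 3 groups, with symbols for the 4 replicates, a line for the mean and a bar for the SD. The EV values of *nsy-1*, *pmk-2* and *pmk-1* lie close together and the RNAi values spread around and above them.

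The AP-1 genes come first. *fos-1* (WBGene00001345) lies on chromosome V from 6003601 to 6016087 on the plus strand of genome build ce11, and its protein is known for a role in anchor cell invasion and ovulation. In EV libraries 1 to 4 it was at 6.28, 7.79, 6.58 and 6.76 RPKM. With *cat-1* RNAi it was at 6.61, 6.73, 5.602 and 5.76 RPKM. With *cat-2* RNAi it was at 6.89, 8.54, 5.62 and 6.31 RPKM. The groups overlapped in every comparison, and *cat-2* RNAi replicate 2 was the highest of all 12 libraries. The means were 6.85 ± 0.652, 6.18 ± 0.577 and 6.84 ± 1.25 RPKM (SD, n = 4). The log2 fold change of *fos-1* relative to EV was -0.14 (SE 0.122, limma adjusted p = 0.908) with *cat-1* RNAi and -0.01 (SE 0.122, limma adjusted p = 0.981) with *cat-2* RNAi.

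One limit applies to the *fos-1* values. An exon of *fos-1* overlaps the proteasome subunit gene *rpt-2* on the opposite strand by 29 bp, and the library preparation as described does not mark strand, so reads there cannot be told apart. *rpt-2* had 248, 243 and 229 RPKM in the 3 groups, and its lowest library, *cat-2* RNAi replicate 2 with 209 RPKM, was the highest for *fos-1*. Its part in the *fos-1* values was not tested.

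*jun-1* (WBGene00012005; chromosome II, 9113157 to 9132231, plus strand), the gene of the Jun partner, was the only member whose libraries did not overlap between 2 groups. In EV libraries 1 to 4 it was at 9.70, 9.31, 9.92 and 9.84 RPKM. Upon *cat-1* RNAi the values were 8.43, 9.22, 8.94 and 9.17 RPKM. All 4 of these lay below the lowest EV library, and the means were 9.69 ± 0.272 and 8.94 ± 0.359 RPKM (SD, n = 4). The exact two-sided permutation p was 0.0286, the smallest that 4 against 4 libraries allow, and 3.57% of all tested genes had groups that did not overlap in this comparison (1.92% with the *cat-1* RNAi libraries higher, 1.65% lower). In limma, where the spread is shared over all 12 libraries, the log2 fold change was -0.11 (SE 0.0815, 95% interval -0.29 to 0.06) with an adjusted p of 0.89.

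With *cat-2* RNAi *jun-1* was at 9.22, 8.26, 8.84 and 10.5 RPKM, a mean of 9.19 ± 0.931 RPKM (SD, n = 4). Of these, 3 lay below every EV library and replicate 4 lay above every EV library. The log2 fold change was -0.08 (SE 0.0815, limma adjusted p = 0.796). Counted over both RNAi groups, 7 of 8 libraries lay below the EV range of *jun-1* and 1 above it. No member was separated in *cat-2* RNAi against EV, where 5.46% of genes were (3.03% higher, 2.42% lower), or in *cat-2* RNAi against *cat-1* RNAi, where 3.18% were (1.95% higher, 1.23% lower). Of the annotated exon length of *jun-1*, 20.8% is shared with *C16D2.1* on the same strand, which was at 0.145, 0.209 and 0.315 RPKM in the 3 groups.

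The ratio of *jun-1* to *fos-1* overlapped between the groups. It was 1.43 ± 0.157 in EV, 1.46 ± 0.161 with *cat-1* RNAi and 1.38 ± 0.309 with *cat-2* RNAi (SD, n = 4). The only library with a higher RPKM of *fos-1* than of *jun-1* was *cat-2* RNAi replicate 2, with a ratio of 0.967. Which side of 1 a ratio falls on depends on the length used for *fos-1*, 1877 bp or a multiple against 4411 bp of annotated exons. The exact permutation p was 0.8286 for both comparisons with EV (0.886 after adjustment over the 8 ratio tests made here).

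*atf-7* (WBGene00000223; chromosome III, 4491627 to 4499045, minus strand), whose protein is bound by PMK-1 and acts on its target genes, was the most abundant member in all 12 libraries. In EV it was at 99.9, 96.7, 92.5 and 93.6 RPKM. The *cat-1* RNAi libraries had 103.0, 98.9, 96.9 and 97.5 RPKM. Upon *cat-2* RNAi the values were 100.3, 119.5, 91.6 and 95.1 RPKM. The groups overlapped, and *cat-2* RNAi replicate 2 was 125% of the EV mean while the other 11 libraries were between 95.7% and 108%. Its log2 fold change relative to EV was 0.05 (SE 0.0664, limma adjusted p = 0.951) with *cat-1* RNAi and 0.08 (SE 0.0664, limma adjusted p = 0.742) with *cat-2* RNAi. Without *cat-2* RNAi replicate 2 the latter was -0.001.

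The p38 cascade begins with *nsy-1* (WBGene00003822; chromosome II, 5022757 to 5029999, plus strand), the MAP kinase kinase kinase gene, a homolog of mammalian ASK1. In EV it was at 15.4, 13.9, 14.1 and 13.8 RPKM. Its values under *cat-1* RNAi were 19.6, 17.2, 12.4 and 15.7 RPKM. The *cat-2* RNAi libraries had 15.8, 19.6, 14.4 and 18.1 RPKM. In each RNAi group 3 of 4 libraries lay above every EV library, and *cat-1* RNAi replicate 3 was the lowest of all 12, so the groups overlapped. The means were 14.3 ± 0.743, 16.2 ± 3.01 and 16.97 ± 2.31 RPKM (SD, n = 4).

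The log2 fold change of *nsy-1* was 0.16 (SE 0.123, 95% interval -0.11 to 0.42, limma adjusted p = 0.893) with *cat-1* RNAi. It was 0.23 (SE 0.123, 95% interval -0.04 to 0.50, limma adjusted p = 0.595) with *cat-2* RNAi, where the exact permutation p was 0.0571. The value for *cat-1* RNAi rests on single libraries. It was 0.06 without *cat-1* RNAi replicate 1 and 0.28 without *cat-1* RNAi replicate 3, with limma adjusted p of 0.999 and 0.44.

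*sek-1* (WBGene00004758; chromosome X, 7816734 to 7821036, plus strand), the gene of the MAP kinase kinase that NSY-1 activates, was at 16.97, 17.2, 17.2 and 15.4 RPKM in EV. With *cat-1* RNAi it was at 19.1, 19.8, 15.6 and 15.6 RPKM. Its values under *cat-2* RNAi were 16.8, 19.4, 16.3 and 18.1 RPKM. Replicates 1 and 2 of *cat-1* RNAi and replicates 2 and 4 of *cat-2* RNAi lay above the EV range and the other RNAi libraries inside it. The means were 16.7 ± 0.865, 17.5 ± 2.25 and 17.7 ± 1.41 RPKM (SD, n = 4), and the log2 fold changes of *sek-1* were 0.06 (SE 0.0891, limma adjusted p = 0.955) and 0.08 (SE 0.0891, limma adjusted p = 0.816). Its exons overlap *R03G5.6* on the opposite strand by 70 bp (5.84, 6.52 and 7.47 RPKM in the 3 groups).

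The 3 p38 genes follow each other in 1 operon on the plus strand of chromosome IV. *pmk-3* (WBGene00004057) runs from 8139219 to 8143154, *pmk-2* (WBGene00004056) from 8143500 to 8148648 and *pmk-1* (WBGene00004055) from 8148794 to 8151266, with 345 bp and then 145 bp between them. Although genes of an operon share a promoter, their RNA levels differed in these worms. *pmk-1*, the last of the 3 and the p38 gene known for pathogen defence, had 2.83 to 4.67 times the RPKM of *pmk-2* in each of the 12 libraries. *pmk-3* had 1.05 to 1.68 times the RPKM of *pmk-2*, also in every library.

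*pmk-1* was at 16.9, 16.001, 15.3 and 15.7 RPKM in EV. Upon *cat-1* RNAi the values were 19.3, 19.5, 15.1 and 14.3 RPKM. With *cat-2* RNAi it was at 18.6, 17.1, 15.9 and 18.5 RPKM. The *cat-1* RNAi libraries fell on both sides of EV, with 2 above and 2 below every EV library, and with *cat-2* RNAi 3 of 4 lay above. The means were 15.99 ± 0.699, 17.1 ± 2.72 and 17.5 ± 1.29 RPKM (SD, n = 4). The log2 fold changes of *pmk-1* were 0.08 (SE 0.0983, limma adjusted p = 0.948) and 0.13 (SE 0.0983, limma adjusted p = 0.722).

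*pmk-2*, a p38 gene with a role in the nervous system, was at 4.27, 4.26, 4.40 and 4.50 RPKM in EV, a coefficient of variation of 2.60%. The *cat-1* RNAi libraries had 5.40, 5.86, 3.45 and 5.06 RPKM. Upon *cat-2* RNAi the values were 4.88, 5.61, 3.40 and 4.25 RPKM. None of these 8 libraries lay inside the EV range, 5 being above it and 3 below, and the coefficients of variation were 21.2% and 20.7%. The EV values rest on 126 to 139 reads a library, and counting error alone usually spreads such counts by more than 2.60%. The EV range of *pmk-2* may therefore be narrow by chance. *cat-2* RNAi replicate 4 was below it by little, at 4.254 against 4.263 RPKM in EV replicate 2. The means were 4.36 ± 0.114, 4.94 ± 1.05 and 4.53 ± 0.939 RPKM (SD, n = 4). The log2 fold changes of *pmk-2* were 0.14 (SE 0.160, limma adjusted p = 0.941) and 0.03 (SE 0.160, limma adjusted p = 0.961). Both rest on single libraries. The value for *cat-1* RNAi was 0.06 without *cat-1* RNAi replicate 2 and 0.29 without *cat-1* RNAi replicate 3, and that for *cat-2* RNAi was -0.07 without *cat-2* RNAi replicate 2 and 0.15 without *cat-2* RNAi replicate 3. *pmk-2* had 98 to 179 reads in a library, fewer than *pmk-1* with 468 to 639.

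*pmk-3*, the p38 gene of the DLK-1 pathway, had the largest difference of the 10 genes. It was at 4.92, 5.31, 5.53 and 5.91 RPKM in EV. Its values under *cat-1* RNAi were 7.26, 7.81, 5.65 and 6.54 RPKM. The *cat-2* RNAi libraries had 5.13, 7.71, 5.70 and 6.31 RPKM. Of the *cat-1* RNAi libraries, 3 lay above every EV library and replicate 3 lay inside the EV range, and of the *cat-2* RNAi libraries 2 lay above it. The means were 5.42 ± 0.415, 6.81 ± 0.935 and 6.21 ± 1.11 RPKM (SD, n = 4).

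For *cat-1* RNAi the log2 fold change of *pmk-3* was 0.30 (SE 0.129, 95% interval 0.02 to 0.58), a fold of 1.23. The unadjusted p was 0.0359 and the adjusted p 0.819 in limma, and the exact permutation p was 0.0571. The unadjusted limma p of *pmk-3* was above 0.05 when any one of 5 libraries was left out, being 0.0919, 0.0648 and 0.0521 without replicates 1, 2 and 3 of EV, and 0.0831 and 0.111 without replicates 1 and 2 of *cat-1* RNAi. For *cat-2* RNAi the log2 fold change was 0.17 (SE 0.129, limma adjusted p = 0.714). The direct difference between the RNAi groups was -0.13 (SE 0.129, limma adjusted p = 0.918).

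The proportions within the operon were compared over 8 ratio tests together with those of *jun-1* to *fos-1*. *pmk-3* to *pmk-2* was 1.24 ± 0.0673 in EV and 1.40 ± 0.158 with *cat-1* RNAi (SD, n = 4, exact permutation p = 0.0571, adjusted 0.343). *pmk-1* to *pmk-3* was 2.97 ± 0.350 and 2.51 ± 0.228 (SD, n = 4, exact permutation p = 0.0857, adjusted 0.343). Neither passed, and the 6 other tests had adjusted p of 0.838 to 0.886.

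**Figure D3:**
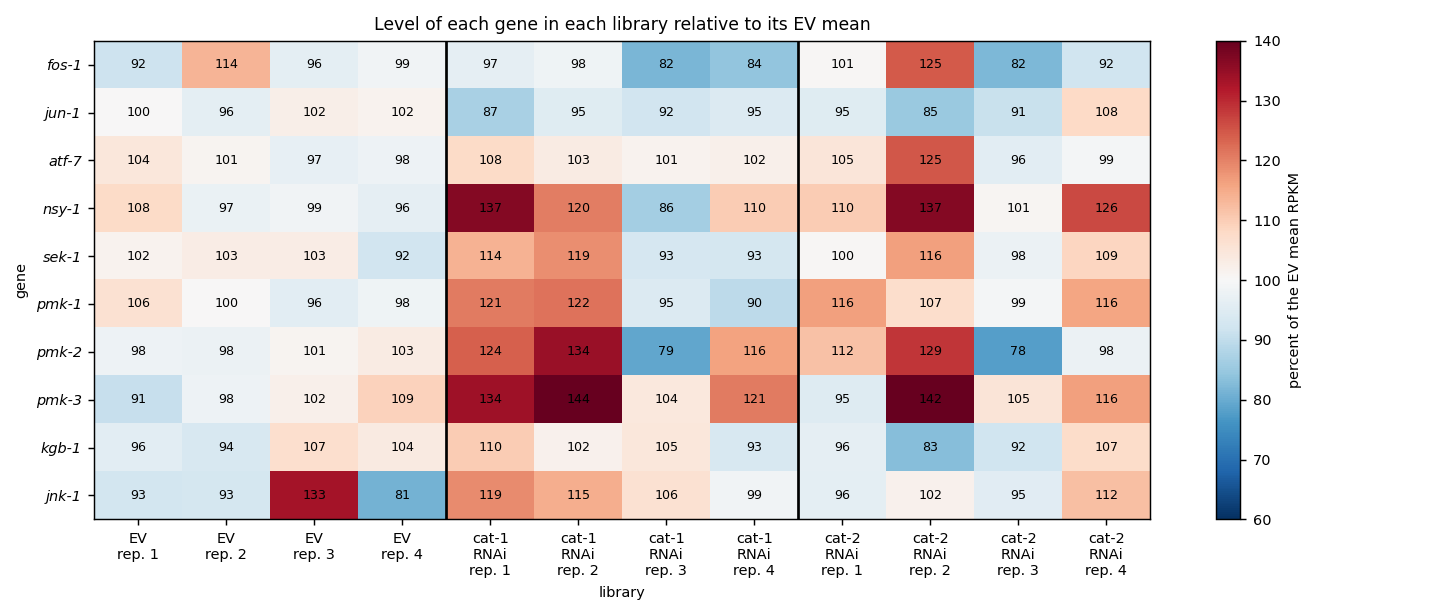
Level of each of the 10 genes (rows) in each of the 12 libraries (columns, EV on the left and *cat-2* RNAi on the right) as a percent of the gene's EV mean RPKM, printed in each cell and coloured from blue (low) to red (high). *cat-1* RNAi replicate 2 and *cat-2* RNAi replicate 2 are above 100% for all 5 p38 cascade genes, while replicate 3 of *cat-1* RNAi is below 100% for 4 of them.

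The p38 cascade genes varied among the libraries of each RNAi group. In *cat-1* RNAi replicate 2 the 5 genes stood at 118.6% to 144% of their EV means, and in replicate 1 at 114% to 137%. In *cat-1* RNAi replicate 3 they stood at 79.1% to 104.3%, and in *cat-2* RNAi replicate 3 at 77.9% to 105%. Other libraries were mixed. In *cat-1* RNAi replicate 4 *pmk-1* and *sek-1* stood at 89.6% and 93.1% but *pmk-3* and *pmk-2* at 120.8% and 116%, and in *cat-2* RNAi replicate 1 *pmk-1* stood at 116% but *pmk-3* at 94.7%. The 4 highest values of *nsy-1* were in *cat-1* RNAi replicates 1 and 2 and *cat-2* RNAi replicates 2 and 4. Those 4 libraries were also the 4 highest on the first principal component of all tested genes (6.93 to 26.0, with -12.2 to 1.90 for the other 8). The values on this component were graded, with 1.90, 6.93 and 11.6 in sequence. On the second component *cat-2* RNAi replicate 2 was at 21.5, while *cat-1* RNAi replicates 1 and 2 and *cat-2* RNAi replicate 4 were at -10.8, -11.9 and -6.36. Whether the 4 libraries form a set was not tested, nor was the source of these differences.

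Of the 6 pairs of members compared over the 12 libraries after centring on group means, none passed adjustment over the 6. *nsy-1* and *sek-1* had r = 0.79 (exact permutation p = 0.0179, adjusted 0.107) and rho = 0.71 (exact permutation p = 0.0342, adjusted 0.205), and r was 0.74 without the 2 libraries farthest from the median of *nsy-1*. *sek-1* and *pmk-1* had r = 0.76 (exact permutation p = 0.118, adjusted 0.236) and rho = 0.64 (exact permutation p = 0.186, adjusted 0.371), and r was 0.59 without the 2 farthest libraries. Within single groups the r of *sek-1* and *pmk-1* was 0.99 under *cat-1* RNAi, but 0.22 under *cat-2* RNAi and 0.15 in EV. Within the operon, *pmk-2* and *pmk-3* had r = 0.69 (exact permutation p = 0.0611, adjusted 0.183) and rho = 0.63 (exact permutation p = 0.0862, adjusted 0.259), with r = 0.60 after leaving out 2. *pmk-1* and *pmk-2* had r = 0.54 (exact permutation p = 0.2, adjusted 0.301) and rho = 0.45 (exact permutation p = 0.266, adjusted 0.398), with r = 0.64 after leaving out 2. Within single groups the r of *pmk-1* and *pmk-2* was 0.64 under *cat-1* RNAi and 0.50 under *cat-2* RNAi, but -0.64 in EV. *pmk-1* and *pmk-3* had r = 0.31 (exact permutation p = 0.411, adjusted 0.411) and rho = 0.31 (exact permutation p = 0.429, adjusted 0.486), with r = 0.17 after leaving out 2. Their r was 0.82 within *cat-1* RNAi, but -0.18 within *cat-2* RNAi and -0.81 within EV. The pairs of *pmk-1* with *pmk-2* and with *pmk-3* were the only ones whose sign differed between groups. Such values within a group rest on 4 libraries and were not tested. *fos-1* and *jun-1* had a negative value, r = -0.49 (exact permutation p = 0.304, adjusted 0.365) and rho = -0.27 (exact permutation p = 0.486, adjusted 0.486), with r = -0.49 after leaving out 2. On RPKM without the log scale the r of *fos-1* and *jun-1* was -0.51, and it was -0.06 without EV replicate 2 and *cat-2* RNAi replicate 2, the 2 farthest there, so it rests on those libraries.

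The spread among replicates of the members differed between the groups. Over all 10 members, *jnk-1* included, the median coefficient of variation was 5.18% in EV, 11.10% with *cat-1* RNAi and 11.4% with *cat-2* RNAi. For 6941 genes in the range of levels of the 9 members other than *jnk-1*, the medians were 5.49%, 6.52% and 8.34%. Of these 9 members, 3 lay above that median in EV, 7 in *cat-1* RNAi and 7 in *cat-2* RNAi. These are descriptions of 4 libraries a group and were not tested.

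Neither JNK family kinase was past a threshold in any comparison. *kgb-1* (WBGene00002187; chromosome IV, 405621 to 410035, minus strand), whose protein phosphorylates FOS-1 in worms, was at 12.1, 11.8, 13.5 and 13.1 RPKM in EV. With *cat-1* RNAi it was at 13.95, 12.9, 13.2 and 11.8 RPKM. Its values under *cat-2* RNAi were 12.2, 10.5, 11.7 and 13.6 RPKM. The groups overlapped, with *cat-2* RNAi replicate 2 the lowest of all 12, as it was for *jun-1*. The means were 12.6 ± 0.799, 13.0 ± 0.889 and 11.98 ± 1.27 RPKM (SD, n = 4). The log2 fold changes of *kgb-1* relative to EV were 0.03 (SE 0.0862, limma adjusted p = 0.983) and -0.08 (SE 0.0862, limma adjusted p = 0.804), and the direct difference of *cat-2* RNAi from *cat-1* RNAi was -0.11 (SE 0.0862, limma adjusted p = 0.885). Its close paralog *kgb-2* was at 1.09, 1.28 and 1.33 RPKM, and how reads that fit both genes were assigned is not given in the sources used here.

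*jnk-1* (WBGene00002178; chromosome IV, 6957641 to 6963719, plus strand), a JNK gene expressed mainly in neurons, was barely detected. In EV it was at 0.477, 0.480, 0.688 and 0.418 RPKM. Upon *cat-1* RNAi the values were 0.613, 0.591, 0.546 and 0.509 RPKM. With *cat-2* RNAi it was at 0.495, 0.525, 0.492 and 0.579 RPKM. All 8 RNAi libraries lay inside the EV range. These values rest on 20 to 32 reads a library, with 96, 108 and 98 reads in the 3 groups, so differences of *jnk-1* under that counting error were not detectable at this depth. The log2 fold changes were 0.07 (SE 0.152, limma adjusted p = 0.976) and 0.02 (SE 0.152, limma adjusted p = 0.981).

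For *fos-1*, *jun-1* and *pmk-1* the 3 genes with the most similar pattern were taken from the 13160 other tested genes by Pearson correlation of log2(RPKM + 0.5) over the 12 libraries, as a description. For *fos-1* they were *C14F11.4* (r = 0.91), *Y44A6D.3* (r = 0.90) and *tofu-5* (r = 0.90). For *jun-1* they were *ubh-1* (r = 0.90), *Y39B6A.27* (r = 0.87) and *alh-1* (r = 0.87). For *pmk-1* they were *C50D2.8* (r = 0.91), *cutl-2* (r = 0.90) and *grl-8* (r = 0.90). None of these 9 is one of the 10 genes, and the points share the groups and the differences of libraries over all genes.

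The other genes around these kinases were taken from lists by pathway, leaving out the 10 members. The background for each list is the share of all genes at an unadjusted limma p under 0.05, which was 3.45% higher and 2.49% lower with *cat-1* RNAi and 4.89% higher and 3.95% lower with *cat-2* RNAi. Of 17 tested genes of the p38 pathway, an unadjusted limma p under 0.05 was reached with *cat-1* RNAi by 1 higher and 1 lower gene (median log2 fold change 0.06) and with *cat-2* RNAi by 2 higher genes and 0 lower (median 0.02). The kinase gene *mnk-1*, known in mammals as a p38 and ERK target, was at 81.0 ± 3.83, 89.8 ± 5.08 and 89.1 ± 6.60 RPKM in the 3 groups (limma adjusted p = 0.819 and 0.550 relative to EV). *uev-3*, whose protein binds PMK-3, was at 26.2 ± 1.13, 23.3 ± 0.632 and 26.1 ± 0.986 RPKM. All *cat-1* RNAi libraries of *uev-3* lay below all EV and all *cat-2* RNAi libraries, although its limma adjusted p was 0.808 and 0.699. Of all genes, 1.65% had all *cat-1* RNAi libraries below EV, and 1.95% had all *cat-2* RNAi libraries above *cat-1* RNAi. *uev-3* is named for its small p, so this separation is no separate support. *olrn-1*, which acts upstream of the p38 chain in an olfactory neuron, was at 1.29 ± 0.300 RPKM in EV and 2.08 ± 0.410 with *cat-2* RNAi (limma adjusted p = 0.491).

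*tir-1*, the adaptor upstream of NSY-1, is named here after its values were seen. It was at 6.27 ± 0.913, 8.67 ± 3.43 and 9.07 ± 2.55 RPKM (SD, n = 4), with limma adjusted p of 0.883 and 0.595 relative to EV. *vhp-1*, the gene of a phosphatase that acts on KGB-1 and PMK-1 and which the study names as a gene that needed *jun-1* for its rise after trauma, was at 13.7 ± 0.484, 14.4 ± 1.63 and 14.1 ± 2.15 RPKM (limma adjusted p = 0.966 and 0.944).

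Of 14 tested genes of the JNK pathway, 0 were past the unadjusted threshold with *cat-1* RNAi in limma (median 0.07) and 2 were higher with *cat-2* RNAi (median 0.10). They were the kinase gene *max-2*, at 65.3 ± 2.24 RPKM in EV and 72.7 ± 1.44 with *cat-2* RNAi (limma adjusted p = 0.351), and *gck-2*, at 45.3 ± 1.66 and 48.6 ± 1.92 RPKM (limma adjusted p = 0.556). Of 15 tested genes of the ERK pathway, 1 was higher with each RNAi and 0 lower (medians -0.01 and 0.07). It was *sos-1*, the Ras exchange factor gene, at 15.1 ± 0.300, 17.1 ± 1.24 and 17.2 ± 1.37 RPKM (limma adjusted p = 0.819 and 0.542).

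Among 22 other tested genes for transcription factors of the bZIP class, to which Fos, Jun and ATF-7 belong, 1 was higher with *cat-1* RNAi and 3 with *cat-2* RNAi, with 0 lower (medians 0.04 and 0.05). *ces-2*, which encodes a regulator of a cell death decision, was at 3.79 ± 0.757, 7.44 ± 3.06 and 8.65 ± 2.97 RPKM (limma adjusted p = 0.819 and 0.461). *zip-4* was at 64.03 ± 2.82 RPKM in EV and 70.3 ± 0.938 with *cat-2* RNAi (limma adjusted p = 0.488). *zip-7* was at 3.78 ± 1.17 and 5.96 ± 0.549 RPKM (limma adjusted p = 0.550). *atf-5* was the only 1 of the 22 past the unadjusted threshold between the RNAi groups, at 25.3 ± 2.70 RPKM with *cat-1* RNAi and 29.6 ± 2.51 with *cat-2* RNAi (limma adjusted p = 0.727).

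**Figure D4:**
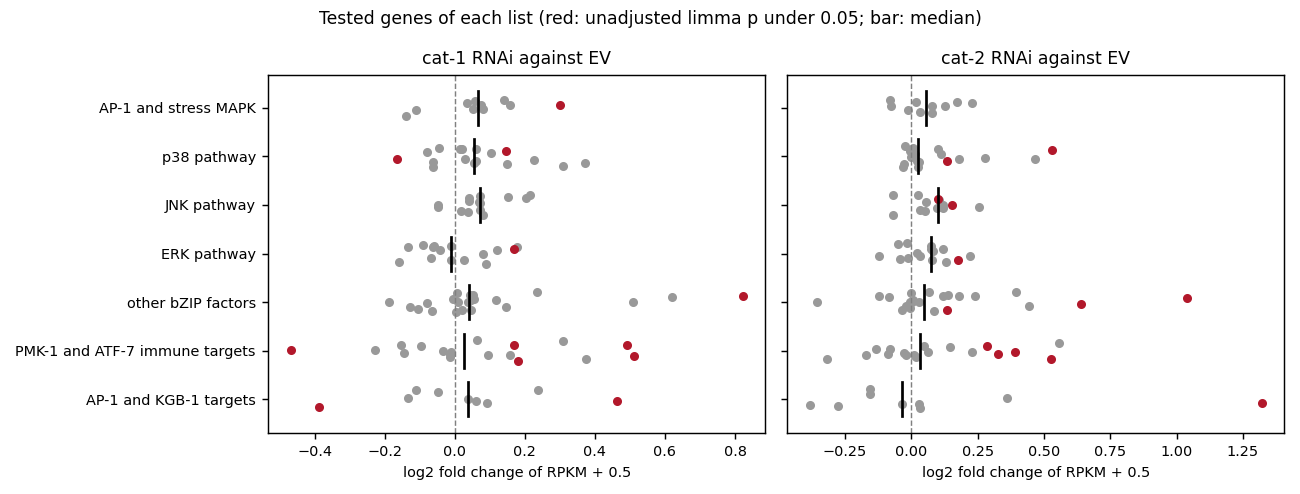
Log2 fold change of RPKM + 0.5 (horizontal axis, its range differs between panels) of the tested genes of each list (rows) for *cat-1* RNAi and *cat-2* RNAi against EV, with red points for an unadjusted limma p under 0.05 and black bars for the median. The 10 AP-1 and stress MAP kinase genes in the top row spread over -0.14 to 0.30 and -0.08 to 0.23.

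The genes downstream of the kinases were described the same way. Of 18 tested immune genes known as targets of PMK-1 and ATF-7, 4 were higher and 1 lower with *cat-1* RNAi (median 0.03), and 4 higher and 0 lower with *cat-2* RNAi (median 0.03), against 3.45% higher and 2.49% lower, and 4.89% higher and 3.95% lower, of all genes. The 3 with the smallest p for *cat-1* RNAi included genes in both directions. *dod-22* was at 8.62 ± 1.34 RPKM in EV and 12.5 ± 1.91 with *cat-1* RNAi, *dod-24* at 46.3 ± 4.68 and 65.2 ± 4.93, and *F35E12.5* at 38.3 ± 3.68 and 27.6 ± 2.95 (limma adjusted p = 0.733, 0.522 and 0.808). *F08G5.6* was at 34.3 ± 5.81, 30.6 ± 4.03 and 49.4 ± 5.86 RPKM, with *cat-2* RNAi above both other groups in all libraries (limma adjusted p = 0.337 relative to EV). Of all genes, 3.03% had all *cat-2* RNAi libraries above EV and 1.95% had all of them above *cat-1* RNAi. *F08G5.6* is named for its small p, so this separation is no separate support. *C17H12.8* was at 65.5 ± 7.43 RPKM in EV and 79.6 ± 7.62 with *cat-2* RNAi (limma adjusted p = 0.461), and *dod-24* at 58.2 ± 6.01 with *cat-2* RNAi (limma adjusted p = 0.422).

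Of 9 tested genes listed as targets of AP-1 or KGB-1, 1 was higher and 1 lower with *cat-1* RNAi (median 0.04). *lys-3*, a lysozyme gene that the study names as an AP-1 target, was at 1.35, 1.19, 1.11 and 1.41 RPKM in EV. With *cat-1* RNAi *lys-3* was at 2.10, 2.02, 1.21 and 2.58 RPKM. With *cat-2* RNAi *lys-3* was at 1.23, 1.52, 1.45 and 0.776 RPKM. It was higher in 3 of 4 *cat-1* RNAi libraries than in any EV library, and replicate 3 lay inside the EV range. Its log2 fold changes were 0.46 (SE 0.196, limma adjusted p = 0.819) relative to EV and -0.50 (SE 0.196, limma adjusted p = 0.729) for *cat-2* RNAi against *cat-1* RNAi, on 14 to 47 reads a library. *egl-43* was at 0.985 ± 0.107 RPKM in EV and 0.658 ± 0.277 with *cat-1* RNAi (limma adjusted p = 0.819). With *cat-2* RNAi only *cat-2* itself, the RNAi target described above, was past the unadjusted threshold among the 9 (median of the list -0.04). *cat-2* was at 0.728 to 1.90 RPKM in the *cat-2* RNAi libraries and at most 0.263 RPKM in any other. It passed the filter for testing only through the group where it is high, so its call says nothing about the list. It is still counted among the 9 and in both medians.

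Between the 2 RNAi groups, 6 of the 10 members lay above 0 in *cat-2* RNAi relative to *cat-1* RNAi, against 51.5% of all genes, with a median of 0.02 (0.004 over all genes). The folds ran from 0.914 to 1.09, with interval limits from 0.731 to 1.31, and the limma adjusted p from 0.885 to 0.983. The exact permutation p of the members in this comparison was 0.229 or more.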

How the data were processed

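Whole-worm poly(A) RNA of 12 libraries was sequenced as paired 150 bp reads, mapped by the authors with CLC software (versions 9.0 and 9.5 are named) to ce11, and deposited as RPKM for 46739 features. The deposited table also holds group means and p-values and false discovery rates of the authors' comparisons, which were not used. How strand and multiply mapped reads were handled, and the mapping settings, were not given in the sources used here. All values above 0 of 20423 features were whole reads (tolerance 0.0001, 100%) once a length was recovered. The 13161 genes that reached 0.5 RPKM in 4 or more libraries were tested with limma (3.58.1, R 4.3.3, trend and robust) on log2(RPKM + 0.5), all libraries in 1 model, with Benjamini-Hochberg adjustment. Single genes and ratios were compared by two-sided exact permutation, and correlations by permuting within groups (13824 arrangements). Target read ratios have 95% Clopper-Pearson intervals, which cover counting error only. Coordinates come from Ensembl release 115 on the same build. Tables and figures used Python 3.11.15, pandas 2.3.3, scipy 1.17.1 and matplotlib 3.10.9.

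The members and lists were chosen with earlier results of these data known. All 10 members are named. From each list up to 3 genes with the smallest unadjusted p under 0.05 are named, with *lys-3*, *vhp-1*, both RNAi targets and *kgb-2*, *rpt-2* and other overlapping genes. Of 146 list names, 137 were found by symbol, 8 by synonym and 1 not. The libraries held 18765779 to 21493743 reads. Between replicates the chi-square per gene was 3.42 to 42.1 over 18 pairs, so no 2 replicates of a group agreed within counting error. Replicate numbers are shared by the groups, but what a number marks is not stated, and same-numbered libraries deviated from group means with r of -0.0578 to 0.185. The libraries were therefore not treated as paired. There were 23 alternatives planned, and 1 was added after seeing the data. The limma procedure was tested on simulated reads for *cat-1* RNAi against EV. At an adjusted p under 0.05 it called 60.5% of 1.5-fold, 84.5% of 2-fold and 91.6% of 3-fold changes. Each draw changed 200 genes at once, which eases the adjustment, while the real comparison called 0 genes. The simulated libraries also differed in depth but had no deviations shared over genes. These shares therefore may not hold for the real libraries. Folds as small as those of the members were not simulated.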

Additional observations from a re-analysis of the deposited data

Results flagged for a closer look

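Each of the 10 genes was examined in each group of 4 libraries for a library far from the others by Dixon's test at the 95% level, 30 tests in all, of which chance flags about 1 in 20. One was found. *sek-1* in EV replicate 4 was at 15.4 RPKM, below the other EV libraries at 16.97 to 17.2 RPKM, with a gap that was 0.852 of the range. Its log2 fold changes relative to EV were 0.06 with *cat-1* RNAi and 0.08 with *cat-2* RNAi, and 0.02 and 0.04 without that library, and none of these was past the threshold.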

How the results depend on the processing

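The 30 log2 fold changes of the members (10 genes, 3 comparisons) were recomputed under 24 alternatives, 717 values because *jnk-1* was not tested under a filter of 1 RPKM. None passed an adjusted p of 0.05, and 27 values of 14 results changed sign. For *cat-1* RNAi against EV, *pmk-3* kept an unadjusted p under 0.05 in 19 of 24 alternatives, with log2 fold changes of 0.24 to 0.38. Leaving out single libraries, 0 to 2 members were under an unadjusted p of 0.05 in that comparison (the second was *nsy-1*, without *cat-1* RNAi replicate 3) and 0 to 1 in *cat-2* RNAi against EV (*nsy-1*, without replicate 3 of either RNAi group). The model of only the 2 compared groups gave 1 member for *cat-2* RNAi (*nsy-1*). The share of all genes at that p was 3.86% to 9.26% and 6.27% to 13.1% over the libraries left out, 9.26% and 13.1% being without replicate 3 of the RNAi group compared, and 8.66% for *cat-2* RNAi with the 2 groups alone. The cause of these moves was not tested.

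Over all genes, leaving out single libraries gave 0 to 1 genes past an adjusted p of 0.05 for *cat-1* RNAi against EV, 0 to 5 for *cat-2* RNAi against EV and 0 to 2 for *cat-2* RNAi against *cat-1* RNAi. For *cat-2* RNAi against EV the count of 4 became 1 with a pseudocount of 0.1 or with the 2 compared groups alone, 2 with median-of-ratios scaling or quantile normalization, 9 with library weights, and 0 without a filter or without trend and robust estimation. For *cat-2* RNAi against *cat-1* RNAi the count of 0 became 1 with library weights or voom, and 2 with both libraries of lowest weight left out, an alternative chosen after seeing the data, which left 1, 0 and 0 members under an unadjusted p of 0.05 in the 3 comparisons, beside 8.07%, 8.93% and 6.17% of genes. With the replicate number as a block the counts of genes were 0, 0 and 0 and those of members 1, 0 and 0 (beside 6.89%, 9.44% and 6.46% of genes at the unadjusted p), and 4 of 12 libraries correlated best with their own number. Depth limits *jnk-1* (20 to 32 reads a library) most.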
